A study of Mus musculus with 6 samples.

Results

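The transcription factor genes Pax6, Emx1, Emx2, Lhx2, Nr2e1, Otx1, Otx2, En1 and En2 help set regional identity in the developing brain. These 9 genes were picked by name, out of 27694 gene symbols in a table of isoform levels from mouse neural stem cell cultures. There were 3 libraries labelled vimentin knockout (KO) and 3 labelled wild type (WT). All were untreated C57/Bl6 cultures grown without serum, with FGF-2 and EGF. The labels give neither the brain region nor the age of the source animals, nor the allele that was removed, and do not say whether cultures of a group came from separate animals. The p-values therefore measure the spread between these libraries, which may be partly technical. Each level is the sum of a gene's isoforms in FPKM, that is, fragments divided by transcript length and by library depth, so levels of different genes can be compared per length.

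All 9 genes encode proteins that bind DNA, and they are expressed in overlapping territories along the early neural tube. Pax6, Emx1, Emx2 and Lhx2 act in the dorsal forebrain, where Pax6 and Emx2 form opposed gradients across the cortical field. Nr2e1, also called Tlx, is an orphan nuclear receptor that keeps forebrain stem cells dividing. Otx1 and Otx2 mark forebrain and midbrain, and En1 and En2 mark the region around the border of midbrain and hindbrain.

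Vimentin RNA was compared between the labels and was higher under the label KO. With the allele not given, the RNA level alone cannot tell whether the labels are right. Vim was at 650, 732 and 624 FPKM in the libraries labelled KO, against 191, 179 and 186 FPKM in those labelled WT, 3.61-fold of the means (adjusted p = 0.0013, limma, with 0.00115 to 0.0947 over the alternatives). Directions below are those of the labels. Depth was equal to 28.4 to 32.5 M reads of 150 bases in the libraries labelled KO and 28.9 to 36.2 M in those labelled WT. WT 2 stood apart, with 16.4% of its FPKM in intronic, intergenic and other isoforms left out of the gene sums, against 3.99% to 5.49% in the other 5 libraries. Markers of neural stem cells summed to 1335 to 1416 FPKM in the libraries labelled KO and 1185 to 1386 FPKM in those labelled WT, and 14 of the 15 in the table had a mean of at least 1 FPKM. Most of these sums came from Fabp7 (means of 675 FPKM under KO and 480 under WT) and Slc1a3 (397 and 409 FPKM). The sums therefore say little of the other markers, and the list includes Pax6. Among the markers, Nes, the intermediate filament of neural progenitors, was at 26.6 ± 11.1 FPKM in the libraries labelled KO and 33.2 ± 13.2 FPKM in those labelled WT (SD, n = 3). Sox2, a defining factor of these cells, was listed at 0 in KO 1, KO 2, KO 3 and WT 2 and at 53.3 and 28.4 FPKM in WT 1 and WT 3, and a listed 0 can be a failed estimate.

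Among the 9 genes, 8 hold a homeobox, the stretch that encodes a DNA-binding homeodomain, and Nr2e1 does not. The pairs Emx1 and Emx2, Otx1 and Otx2, and En1 and En2 are paralogues, so reads could in principle be given to the wrong partner. The codons around the recognition helix are shown because they lie in the homeobox, where the identity of the partners was compared. Each is a 51-base coding stretch, 5′ to 3′ on the coding strand, from GENCODE M21 transcripts (GRCm38), and the capitals mark the codon of homeodomain residue 50, a position known to influence which bases are bound.
Emx1: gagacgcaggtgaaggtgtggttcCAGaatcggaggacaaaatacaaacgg
Emx2: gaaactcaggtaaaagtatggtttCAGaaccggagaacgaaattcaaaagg
Otx1: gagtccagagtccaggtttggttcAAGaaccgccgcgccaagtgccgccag
Otx2: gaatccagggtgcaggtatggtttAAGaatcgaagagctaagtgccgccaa
En1: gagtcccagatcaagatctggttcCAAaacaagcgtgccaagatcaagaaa
En2: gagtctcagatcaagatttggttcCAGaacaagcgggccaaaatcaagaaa
Lhx2: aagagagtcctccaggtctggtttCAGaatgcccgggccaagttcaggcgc
Pax6: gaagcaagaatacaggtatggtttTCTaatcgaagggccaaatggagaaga
The stretches of En1 (chr1:120607040-120607090, plus strand) and En2 (chr5:28170286-28170336, plus strand) are each within a single coding exon. The others are joined across an intron, within chr6:85194214-85203950 for Emx1 and chr19:59461838-59463921 for Emx2 (both plus strand), and chr11:21997023-21998384 for Otx1 and chr14:48659291-48661313 for Otx2 (both minus strand). Those of Lhx2 and Pax6 are within chr2:38360089-38368877 and chr2:105692262-105692505 (both plus strand).
Across the 180 bases of the homeobox, identity was 78.9% between Emx1 and Emx2, 80.0% between Otx1 and Otx2 and 83.3% between En1 and En2. The other 25 pairs had between 42.2% and 60.0%. The longest identical run between paired transcripts was 14 bases for Emx1 and Emx2, 18 for Otx1 and Otx2 and 17 for En1 and En2. All 3 are short beside reads of 150 bases.

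The cultures had a graded set of these RNAs. The order of the means differed between the labels only in En1 and En2, but part of the WT order was not resolved, as given below. In the libraries labelled KO, Pax6 was the highest at 11.5 ± 1.52 FPKM (SD, n = 3), followed by Nr2e1 (6.07 ± 0.233 FPKM), Lhx2 (5.01 ± 0.155 FPKM), Emx2 (3.33 ± 1.20 FPKM) and Otx1 (2.27 ± 0.299 FPKM). Below 1 FPKM on average were En1 (0.772 ± 0.290 FPKM) and En2 (0.671 ± 0.125 FPKM). Emx1 was at 0.235 FPKM or less and Otx2 at 0.0311 FPKM or less in each library labelled KO. The ranges of En1 and En2 overlapped, and those of each other pair of neighbours in this order did not.

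In the libraries labelled WT, Pax6 was again the highest at 11.7 ± 2.20 FPKM (SD, n = 3). It was followed by Nr2e1 (4.53 ± 0.518 FPKM), Lhx2 (3.67 ± 0.614 FPKM), Emx2 (2.97 ± 0.880 FPKM) and Otx1 (1.73 ± 0.448 FPKM). En2 came next at 1.12 ± 0.216 FPKM, above En1 at 0.746 ± 0.0431 FPKM. From Nr2e1 down to En2, the range of each gene overlapped that of its neighbour, so this stretch of the order is not resolved. Pax6 stood clear of Nr2e1, En2 of En1, and En1 of Emx1.

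**Figure D1:**
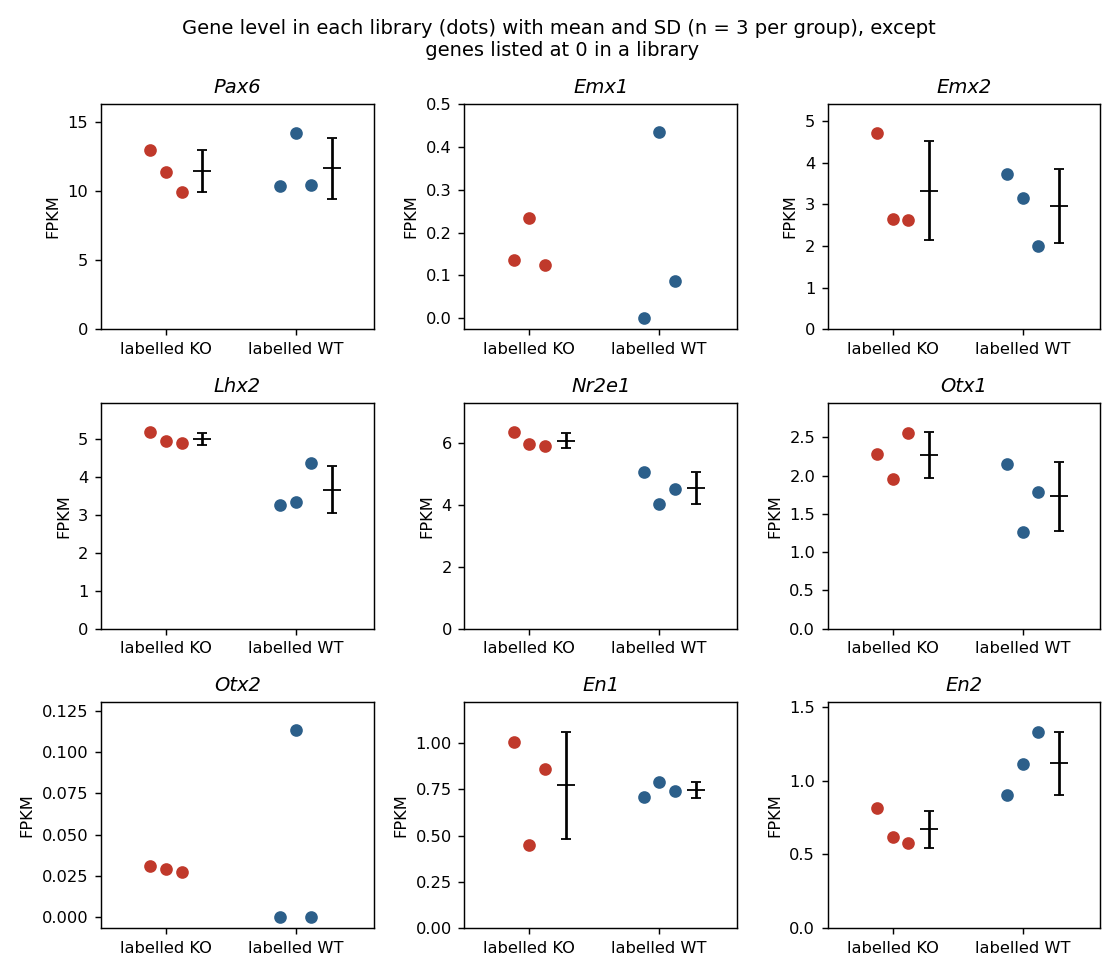
FPKM of each gene in the 3 libraries labelled KO (red) and the 3 labelled WT (blue), with mean and SD in black where no library is listed at 0, on axes scaled gene by gene. The KO dots lie above the WT dots for Lhx2 and Nr2e1 and below them for En2, and the groups overlap for Pax6, Emx1, Emx2, Otx1, Otx2 and En1.

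The main question was whether these levels differed between the libraries labelled KO and those labelled WT. None of the 9 genes passed the test. The cortical genes Lhx2 and Nr2e1 had higher values in every library labelled KO, by 1.37-fold and 1.34-fold of the means, and En2 had lower values in each, at 0.601 of the WT mean. Such orders were common. Among all tested genes, 16.9% had all KO values above the WT values and 16.4% had all of them below. Of all genes above 0 FPKM in a library, 8.83% had all KO values below the WT values. The ratio of the KO mean to the WT mean was 0.982 for Pax6, 1.12 for Emx2, 1.03 for En1 and 1.31 for Otx1. The test was limma on log2(FPKM + 1) over 12080 genes with a mean of at least 1 FPKM, called at a Benjamini-Hochberg adjusted p under 0.05. Of the 9 genes, 5 had this mean and were tested, and 0 of the 5 were called, where 6.9% of all tested genes were. At an unadjusted p under 0.05 there were 2 of the 5, against 24.6% of all tested genes. Their median log2 fold change was 0.27, against -0.02 over all tested genes. In bulk libraries, fewer expressing cells and less RNA per cell cannot be told apart.

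On data simulated from the levels and spread of these libraries, limma recovered 52% of genes changed by 1 log2 unit and 75% of those changed by 2. These changes were set in 100 genes at each size, fewer than the 833 genes called in the data, and the rates are averages over genes of every spread. They are therefore not the power for Lhx2 and Nr2e1, whose changes are smaller than either. A missed call does not show that the levels were alike.

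Pax6 (chr2:105668900-105701026, plus strand, in coordinates of GRCm38 as for the genes below) is a paired-box and homeodomain regulator of cortical progenitors and of the eye. It was at 13.0, 11.4 and 9.96 FPKM in the libraries labelled KO, against 10.4, 14.2 and 10.4 FPKM in those labelled WT. The groups overlapped, and WT 2 was the highest of the 6. The log2 fold change was -0.02, with a 95% interval from -0.42 to 0.39 (adjusted p = 0.966, limma). Its level was exceeded by 41.6% of the tested genes, so it was near the middle of what these cells express. The sign of its change turned in 5 alternatives, and the value lay between -0.25 and 0.34 over all of them.

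Emx2 (chr19:59458372-59465357, plus strand) is a homeodomain factor that favours caudal and medial cortical fates. It was at 4.71, 2.65 and 2.63 FPKM in the libraries labelled KO, against 3.74, 3.15 and 2.01 FPKM in those labelled WT. KO 1 was the highest of the 6 libraries, and the other KO values lay inside the WT range. The log2 fold change was 0.12, with a 95% interval from -0.54 to 0.78 (adjusted p = 0.83, limma). The sign depended on single libraries, with -0.10 without KO 1 and -0.07 without WT 3.

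Its relative Emx1 (chr6:85187438-85204462, plus strand), which marks progenitors of the dorsal cortex, was close to the limit of detection. It was at 0.136, 0.235 and 0.125 FPKM in the libraries labelled KO, against 0, 0.436 and 0.0861 FPKM in those labelled WT. These values stand for an estimated 6.04 to 9.05 reads in a library labelled KO and 0 to 21.1 in one labelled WT, and 3 reads of its main isoform would be worth 0.0531 to 0.0677 FPKM. A difference was not detectable at this depth. Emx2 RNA was thus present at several FPKM in cultures with almost no Emx1 RNA.

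Lhx2 (chr2:38339281-38369733, plus strand) is a LIM homeodomain factor that specifies cortex. It was at 5.18, 4.94 and 4.89 FPKM in the libraries labelled KO, against 3.28, 3.35 and 4.38 FPKM in those labelled WT. Each library labelled KO was above each labelled WT. Among all tested genes, 16.9% had their values ordered in this way. The log2 fold change was 0.37 (SE 0.14), with a 95% interval from 0.02 to 0.72 before adjustment for multiple tests (adjusted p = 0.182, limma). By an exact two-sided permutation test of this gene p was 0.1, and 3 libraries against 3 cannot give less. No alternative took it past the threshold, and its direction held in all 18.

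Nr2e1 (chr10:42561963-42583632, minus strand) was at 6.34, 5.96 and 5.91 FPKM in the libraries labelled KO, against 5.06, 4.03 and 4.51 FPKM in those labelled WT. It too was higher in every library labelled KO. The log2 fold change was 0.36 (SE 0.12), with a 95% interval from 0.05 to 0.66 before adjustment (adjusted p = 0.152, limma), and the exact two-sided permutation p was 0.1. It passed in 1 alternative, voom on estimated reads, which was chosen after the data were seen (log2 fold change 0.60, adjusted p = 0.0383). That fit does not divide by isoform length, and in WT 1 most of the Nr2e1 level lay in a shorter isoform, described below, whose part in the call was not tested. Over the other 18 alternatives the adjusted p was 0.127 to 0.41.

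Otx1 (chr11:21994764-22002897, minus strand) is needed for normal growth of the forebrain. It was at 2.29, 1.96 and 2.55 FPKM in the libraries labelled KO, against 2.15, 1.26 and 1.78 FPKM in those labelled WT. KO 2 lay inside the WT range, so the groups overlapped. The log2 fold change was 0.27, with a 95% interval from -0.20 to 0.73 (adjusted p = 0.44, limma). It became -0.11 when intronic fragments were included in the gene sum, and was 0.0047 with voom on estimated reads.

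Otx2 (chr14:48657679-48665246, minus strand), which is essential for the anterior head and for the choroid plexus, was at 0.0311, 0.0287 and 0.0271 FPKM in the libraries labelled KO, an estimated 2.01 reads in each. It was listed at 0 in WT 1 and WT 3 and at 0.114 FPKM in WT 2, an estimated 8.05 reads. With 3 reads worth 0.0363 to 0.0463 FPKM, both groups were at or near the floor, and no fold is given. Of the Otx pair, Otx1 alone had a level above 1 FPKM.

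En1 (chr1:120602418-120607992, plus strand), which is required to form the midbrain and cerebellum, was at 1.01, 0.447 and 0.862 FPKM in the libraries labelled KO, against 0.706, 0.792 and 0.741 FPKM in those labelled WT. The WT values lay inside the KO range. En2 (chr5:28165694-28172166, plus strand) shapes the folding of the cerebellum. It was at 0.814, 0.621 and 0.579 FPKM in the libraries labelled KO, against 0.901, 1.12 and 1.33 FPKM in those labelled WT. Every library labelled KO was below every library labelled WT, an order seen in 16.4% of the tested genes and in 8.83% of all genes above 0 FPKM in a library. The exact two-sided permutation p for En2 was 0.1, the smallest possible. Both genes had a mean under 1 FPKM and were left out of the main test. Without that filter, En2 had a log2 fold change of -0.34 (95% interval -0.77 to 0.09, adjusted p = 0.452, limma), and En1 of 0.01 (-0.44 to 0.45, adjusted p = 0.987, limma). In estimated reads, the summed libraries held 216 for En2 under the label KO and 386 under WT.

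**Figure D2:**
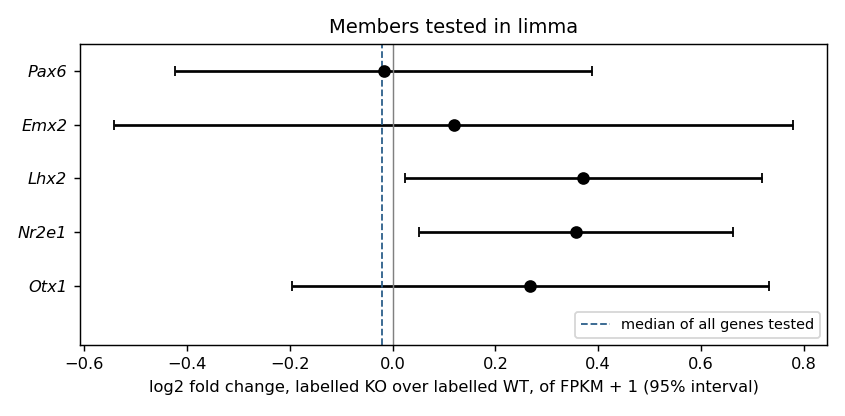
Log2 fold change of FPKM + 1, libraries labelled KO over those labelled WT, with 95% intervals from limma before adjustment for multiple tests, for the 5 genes tested, and a dashed line at the median of all tested genes. The intervals of Lhx2 and Nr2e1 lie above 0, those of Pax6, Emx2 and Otx1 cross it, and no gene passed after adjustment.

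The gene sums are made of isoforms, and for Nr2e1, Otx1 and Pax6 the isoforms were divided differently among libraries of the same label. Of the 42 isoforms of these 9 genes that entered the sums, 7 had a mean of at least 1 FPKM and were tested, and 0 were called by limma (0.139% of 27399 isoforms tested in all were called). None of the 7 had an unadjusted p under 0.05. The smallest adjusted p was that of the main Nr2e1 isoform.

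For Nr2e1, the reference isoform of 9 exons (ENSMUST00000019938, 3285 bases) was at 6.34, 5.89 and 5.82 FPKM in the libraries labelled KO, against 0.662, 4.03 and 4.28 FPKM in those labelled WT. WT 1 was far below its companions. An assembled isoform of 9 exons and 2343 bases (MSTRG.4635.2) was at 4.35 FPKM in WT 1 and at 0 in the other 5 libraries. The log2 fold change of the reference isoform was 0.99, with an SE of 0.49 and an adjusted p of 0.545 by limma, against 0.36 for the gene sum, to which both isoforms contribute.

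For Otx1, the coding isoform of 5 exons (ENSMUST00000006071) was at 1.80, 1.71 and 2.05 FPKM in the libraries labelled KO, against 1.76, 0 and 0.36 FPKM in those labelled WT. WT 1 resembled the KO libraries, and WT 2 and WT 3 did not. GENCODE annotates the isoform of 3 exons (ENSMUST00000172395) as having a retained intron. It was at 0.391, 0.247 and 0.386 FPKM in the libraries labelled KO, against 0.304, 1.26 and 1.35 FPKM in those labelled WT. The coding isoform did not pass (log2 fold change 0.88, SE 0.45, adjusted p = 0.555, limma), and a listed 0 for an isoform can be a failed estimate, since the gene itself was measured in WT 2.

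For Lhx2, the main isoform of 5 exons (ENSMUST00000000253) carried most of the level. It was at 4.57, 4.12 and 4.53 FPKM in the libraries labelled KO, against 3.17, 3.35 and 3.42 FPKM in those labelled WT. The KO values were again all above the WT values (log2 fold change 0.33, SE 0.22, adjusted p = 0.643, limma). Among tested genes 16.9% had this order, and the share among isoforms was not computed. Emx2 was likewise carried by a single isoform of 3 exons (ENSMUST00000062216), at 4.61, 2.49 and 2.63 FPKM in the libraries labelled KO and 3.74, 3.15 and 1.95 FPKM in those labelled WT (adjusted p = 0.933, limma).

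Pax6 had 20 isoforms, and a small alternative exon of 42 bases separates its known protein forms. This exon, called 5a, lies inside the paired-domain coding region and changes how that domain meets DNA. It spans chr2:105684751-105684792 on the plus strand (GRCm38, GENCODE M21). It is shown in capitals, 5′ to 3′, with the 15 transcript bases on each side from ENSMUST00000090391.
Pax6 exon 5a: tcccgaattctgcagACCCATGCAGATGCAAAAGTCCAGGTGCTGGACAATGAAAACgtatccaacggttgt
The 8 reference isoforms that hold it as an exon of its own summed to 5.66, 4.37 and 3.85 FPKM in the libraries labelled KO, against 3.67, 2.94 and 3.50 FPKM in those labelled WT. The KO values were all above the WT values, an order seen in 16.9% of the tested genes. No such share was computed for sums of isoforms. The 5 isoforms that join the flanking exons without it summed to 5.96, 5.57 and 5.04 FPKM in the libraries labelled KO, against 4.69, 8.50 and 4.74 FPKM in those labelled WT. Here WT 2 was the highest library. An intron-retaining isoform with these bases in a longer exon, ENSMUST00000123000, is in neither sum, at 0.816, 1.23 and 0.864 FPKM in the libraries labelled KO, against 0.845, 0.588 and 0.525 FPKM in those labelled WT. An assembled isoform of 14 exons, MSTRG.27737.7, was not classified and was at 0 FPKM in each library labelled KO, against 0, 0.993 and 0.930 FPKM in those labelled WT. The order of the sums with the exon depends on leaving this isoform out. Counted as holding the exon, it would bring WT 2 and WT 3 above KO 3, and the groups would overlap.

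As a share of these 2 sums, the exon was present in 48.7%, 44.0% and 43.3% in the libraries labelled KO, against 43.9%, 25.7% and 42.5% in those labelled WT. WT 2 was the low library, and the groups overlapped (exact two-sided permutation p = 0.2). The mean share was 7.95 percentage points higher under the label KO, 8.72 with the intron-retaining isoform counted as holding the exon, 4.03 with the assembled isoform counted as holding it and 10.1 with it counted as lacking it. These settings were added after the data were seen, and the exact permutation p was 0.2 to 0.6. The low share in WT 2 went with a single isoform that lacks the exon, ENSMUST00000090397, at 5.79 FPKM in WT 2 and 0.518 to 1.88 FPKM in the other 5 libraries. None of the 3 tested Pax6 isoforms passed. ENSMUST00000111082, of 12 exons, had 0.34 as its log2 fold change, with an SE of 0.27 (adjusted p = 0.70, limma). ENSMUST00000090391, of 13 exons, had 0.31 (SE 0.28, adjusted p = 0.722) and ENSMUST00000090397 had -0.09 (SE 0.63, adjusted p = 0.969).

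**Figure D3:**
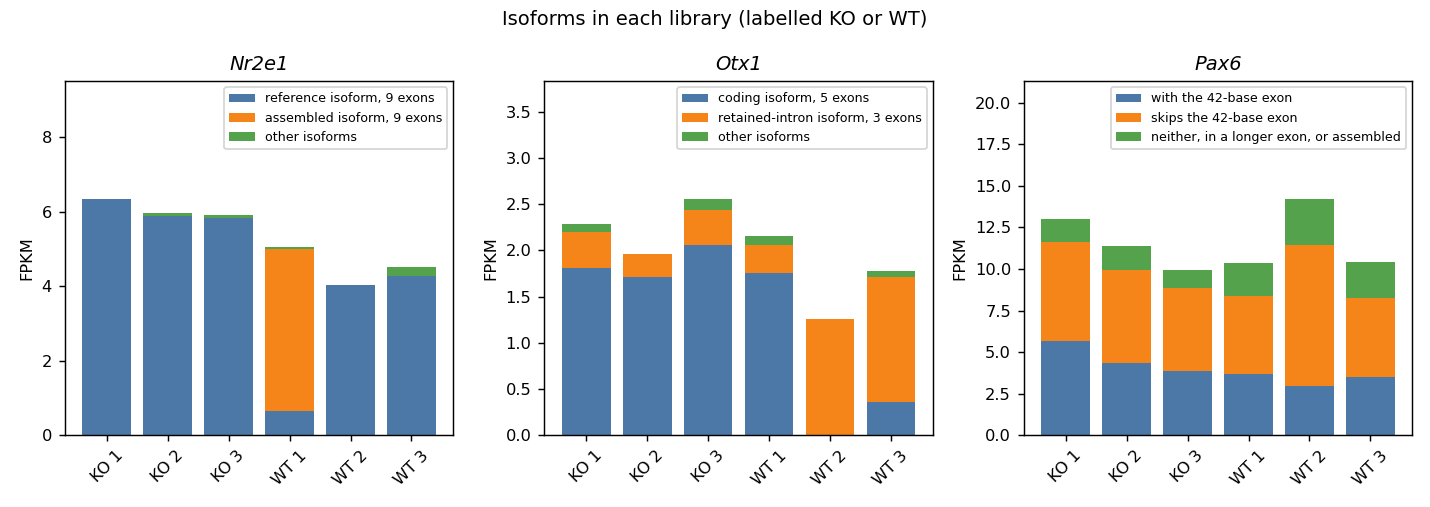
Stacked FPKM of isoforms of Nr2e1, Otx1 and Pax6 in each library, with the libraries labelled KO on the left and those labelled WT on the right, and Pax6 isoforms grouped by the 42-base exon. WT 1 differs for Nr2e1, WT 2 and WT 3 for Otx1, and WT 2 for Pax6, while the 3 libraries labelled KO resemble each other in all 3 genes.

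Single-exon fragments inside introns of Pax6, En1 and Otx1 were not counted in the sums. In Pax6, 2 intronic fragments summed to 0 FPKM in each library labelled KO, against 1.08, 7.45 and 0 FPKM in those labelled WT. In En1, 1 fragment was at 0.430, 0.645 and 0.368 FPKM in the libraries labelled KO, against 0.192, 1.33 and 0 FPKM in those labelled WT. WT 2 was the highest library for both. In Otx1, 2 fragments summed to 0.989, 1.89 and 1.51 FPKM in the libraries labelled KO, against 2.32, 2.53 and 2.22 FPKM in those labelled WT. Here the KO values were all below the WT values, an order seen in 16.4% of the tested genes. The share among fragments was not computed. With all left-out isoforms included, the log2 fold change became -0.11 for Otx1, against 0.27, and -0.25 for Pax6, against -0.02, and neither gene passed.

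The antisense gene Emx2os is transcribed from the opposite strand beside Emx2. It was at 1.64, 0.974 and 2.86 FPKM in the libraries labelled KO, against 1.24, 2.33 and 1.41 FPKM in those labelled WT (log2 fold change 0.05, adjusted p = 0.939, limma). The groups overlapped. It was the only 1 of 4 antisense genes in the table with a mean of at least 1 FPKM.

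Lists of regional patterning genes differed in their calls, where 6.9% of all tested genes were called. Of 14 tested genes of telencephalon and forebrain patterning, 0 were called (median log2 fold change 0.12, 5 at an unadjusted p under 0.05). This list is not independent of the 9 genes, since it holds Pax6, Emx2, Lhx2, Nr2e1 and Otx1. Lhx2 and Nr2e1 are among those at an unadjusted p under 0.05. Nr2f1, also called COUP-TFI, which patterns the caudal cortex, was at 37.0, 34.1 and 29.0 FPKM in the libraries labelled KO, against 21.6, 19.8 and 24.9 FPKM in those labelled WT. The groups did not overlap, but the gene did not pass (log2 fold change 0.57, SE 0.13, adjusted p = 0.0627, limma). Zic2, a zinc finger factor of the dorsal midline, had lower values in each library labelled KO (4.79, 3.08 and 2.06 FPKM) than in each labelled WT (10.4, 7.79 and 6.06 FPKM) and did not pass either (log2 fold change -1.09, SE 0.29, adjusted p = 0.0863, limma).

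The list of dorsal telencephalic neurogenesis had 5 tested genes and 0 calls (median 0.12, the value of Emx2). Pax6, Emx2 and Lhx2 are among these 5. Beside Lhx2, the smallest p was that of Dmrta2, a cortical progenitor factor. Dmrta2 was at 2.55 ± 0.453 FPKM in the libraries labelled KO and 1.63 ± 0.690 FPKM in those labelled WT (SD, n = 3, adjusted p = 0.328, limma). In the ventral telencephalon list, 1 of 4 tested genes rose, 1 fell and 2 did not pass (median 0.05). The calls in this small list are a larger share than the 6.9% of all tested genes. Olig2, a factor of ventral progenitors and oligodendrocytes, rose to 16.0 ± 2.41 FPKM in the libraries labelled KO, against 3.36 ± 0.935 FPKM in those labelled WT (SD, n = 3, adjusted p = 0.0076, limma). With its highest isoform alone the call was lost, and over the alternatives the adjusted p was 0.00635 to 0.32. Its partner Olig1 fell to 326 ± 27.0 FPKM in the libraries labelled KO, against 504 ± 37.7 FPKM in those labelled WT (SD, n = 3, adjusted p = 0.0281, limma), a call lost in 5 of the 6 fits that leave out a library (highest adjusted p = 0.104).

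In the diencephalon and eye field list, 0 of 8 tested genes were called (median -0.05). The smallest p-values were those of Irx1, a homeodomain gene of the Iroquois family, at 4.98 ± 0.895 FPKM in the libraries labelled KO and 7.37 ± 0.639 FPKM in those labelled WT (adjusted p = 0.127, limma), and Irx5, at 1.29 ± 0.656 and 3.52 ± 1.78 FPKM (SD, n = 3, adjusted p = 0.185, limma). Of the list around the midbrain and hindbrain border, to which En1 and En2 belong, 12 of 14 genes had a mean under 1 FPKM and 0 of 2 tested genes were called (median 0.03). These were Lmx1b, at 2.08 ± 0.167 FPKM in the libraries labelled KO and 1.55 ± 0.201 FPKM in those labelled WT (adjusted p = 0.324, limma), and Irx2, at 2.64 ± 0.311 and 3.35 ± 1.12 FPKM (SD, n = 3, adjusted p = 0.568, limma).

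Hindbrain and spinal cord genes were also present. Of 7 tested, 2 were called and 5 did not pass (median -0.18), a larger share of calls than the 6.9% of all tested genes. Hoxa3 rose to 13.7 ± 1.25 FPKM in the libraries labelled KO, against 6.84 ± 0.109 FPKM in those labelled WT (SD, n = 3, adjusted p = 0.00911, limma). Its assembled locus is shared with 5 other gene symbols, and with reference transcripts or the highest isoform alone the call was lost, so this value is uncertain (adjusted p from 0.00695 to 0.653 over the alternatives). Forebrain genes such as Lhx2 and Nr2e1 and caudal genes such as Hoxa3 were thus measured in the same cultures. Bulk libraries do not show whether the same cells hold both.

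**Figure D4:**
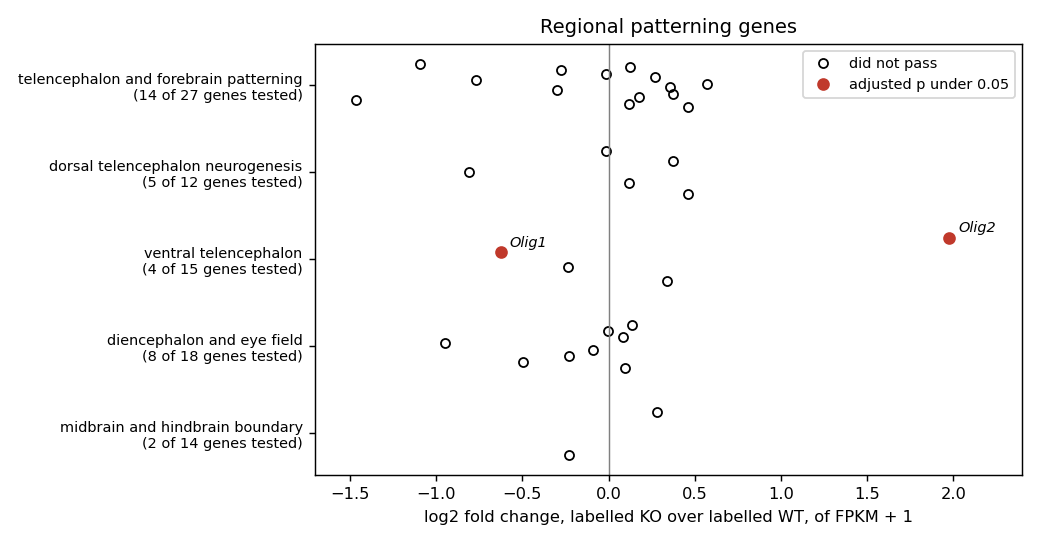
Log2 fold change of FPKM + 1, libraries labelled KO over those labelled WT, for each tested gene of 5 regional lists (open circles did not pass, filled circles have an adjusted p under 0.05). The calls are Olig2 to the right and Olig1 to the left, and none of the forebrain patterning genes is among them.

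Of 25 tested genes that encode partners of these factors, such as LIM-binding and Groucho proteins, 0 rose, 1 fell and 24 did not pass (median -0.06), a share of calls no higher than the 6.9% of all tested genes. The called gene was Tle1, a Groucho corepressor that homeodomain factors recruit. It fell to 10.1, 9.71 and 9.06 FPKM in the libraries labelled KO, against 25.1, 29.2 and 28.9 FPKM in those labelled WT (log2 fold change -1.43, SE 0.10, adjusted p = 0.00254, limma). This call held in each fit that leaves out a library and was lost with the highest isoform alone (adjusted p = 0.0506). Over all the alternatives its adjusted p was 0.00218 to 0.0688, the highest with a replicate block, under which the call was also lost.

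By a fixed measure of likeness, the pattern nearest to that of Nr2e1, which had the smallest p of the 5 tested genes, was that of Fam35a. Its centred log2(FPKM + 1) values lay at a Euclidean distance of 0.0531 over the 6 libraries. Cpt1c followed at 0.0777 and Noc4l at 0.0962. Fam35a was at 2.07, 1.96 and 1.84 FPKM in the libraries labelled KO, against 1.58, 1.09 and 1.36 FPKM in those labelled WT, and none of these 3 genes was called (adjusted p = 0.185 to 0.259, limma).

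Markers of glia were called in both directions, where 6.9% of all tested genes were called. Among astrocyte markers, 1 of 10 tested genes rose, 4 fell and 5 did not pass, and their sum was 549 to 631 FPKM in the libraries labelled KO and 397 to 812 FPKM in those labelled WT. The GABA transporter Slc6a11 fell to 0.188 ± 0.127 FPKM in the libraries labelled KO, against 66.6 ± 5.13 FPKM in those labelled WT (SD, n = 3), and Gfap and Aqp4 also fell. The Aqp4 call was lost with reference transcripts only (log2 fold change -1.09 against -1.76, adjusted p = 0.176) and with the highest isoform alone (adjusted p = 0.251), by limma, with 0.0019 to 0.251 over all the alternatives. The folate enzyme Aldh1l1 rose to 68.6 ± 0.269 FPKM in the libraries labelled KO, against 2.77 ± 1.46 FPKM in those labelled WT (SD, n = 3). Among oligodendrocyte lineage markers, 1 of 7 rose (Olig2), 3 fell (Cnp, Olig1 and Pdgfra) and 3 did not pass, with sums of 383 to 439 FPKM in the libraries labelled KO and 608 to 673 FPKM in those labelled WT. In the stem cell list 0 of 14 rose, and 1 fell, the Notch target Hes5, whose call did not survive leaving out any library (highest adjusted p = 0.144). In the mesenchyme list 1 of 5 rose (Fn1) and 1 fell (Pdgfra), with both calls lost in 5 of those 6 fits. Neuron markers had 0 calls among 5 tested, with Gap43 (adjusted p = 0.125, limma) and Elavl4 (adjusted p = 0.377, limma) nearest.

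The microglial list had 0 calls, with 9 of its 10 genes under a mean of 1 FPKM. The ependymal list had 1 tested member, the ciliary regulator Foxj1, which did not pass (adjusted p = 0.654, limma). Endothelial and pericyte markers were under 1 FPKM in 9 of 9 genes and summed to less than 1 FPKM in each library. The part of these markers in the levels of the 9 genes was not tested.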

How the data were processed

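RNA of 6 cultures had been depleted of ribosomal RNA and sequenced as strand-specific paired-end libraries, per the labels' protocols. The authors deposited FPKM and the coverage signal (mean reads per base) for 125793 isoforms. Tools named without versions in the submitters' processing notes are StringTie, TopHat2, Bowtie2, FastQC and cutadapt. No source used here names the build. Of 40 reference isoforms of the 9 genes, 39 had the coordinates of GENCODE M21 (GRCm38). Columns headed NT were taken as WT, by elimination and by number (0 columns unused).

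Isoforms of class 0, c, j, e and o (95506) were summed per gene symbol. Reads were estimated as coverage times length over 150 bases, and floors of 3 reads cover counting error only. Fits used R 4.3.3 and limma 3.58.1 with a mean-variance trend. Its voom function, on estimated reads rounded to whole numbers and scaled by library totals, was an added alternative. Exact permutation tests used scipy 1.17.1 in Python 3.11.15, tables numpy 2.4.6 with pandas 2.3.3, and figures matplotlib 3.10.9. Fold changes on log2(FPKM + 1) understate the change of low genes. On simulated data of 12080 genes there were 11 false calls.

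Genes named are the 9, Vim, up to 4 called genes of each list with the smallest p (otherwise the 2 smallest), isoforms with a mean of at least 1 FPKM, and the 3 genes most like the best tested one. Some listed genes are not reported here. The isoforms and fragments under that mean were named after their values were seen. The 9 genes and all lists were chosen with earlier results of these data known.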

Additional observations from a re-analysis of the deposited data

Results flagged for a closer look

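A signal outside the gene sums was higher under the label KO, the only direction that the flagging rule looked for. A single-exon fragment beside the end of Emx2os (MSTRG.25316.1, 539 bases) is of a class left out of the sums. It was at 0.658, 1.34 and 0.453 FPKM in the libraries labelled KO (mean 0.817) and at 0, 0 and 0.103 FPKM in those labelled WT. This is an estimated 7.94 to 22.1 reads in a library labelled KO and 0 to 2.01 in one labelled WT, and the difference was not tested. A left-out fragment in an intron of Pax6os1, an antisense gene of Pax6, had the opposite order (MSTRG.27735.1). Its values were 0.0439, 0.0417 and 0 FPKM in the libraries labelled KO, against 0.146, 1.82 and 0.690 FPKM in those labelled WT. That difference was not tested either.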

How the results depend on the processing

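With voom on estimated reads, added after the data were seen, 1 gene of the 9 (Nr2e1) was called. None was called under the other settings run, thresholds of 0.01 and 0.1 and leaving out each library (0 to 0) included. Their isoforms had 0 calls in each fit, also without each library (0 to 0). Of 92 values of the 5 tested genes over the alternatives, 83 kept direction and side of the threshold, 1 passed and 8 reversed. Pax6 reversed to 0.0086 with quantile normalisation, 0.056 with reference transcripts only, 0.34 with the highest isoform, 0.07 without KO 3 and 0.12 without WT 2, and moved the other way to -0.25 with every class code. Emx2 reversed to -0.10 without KO 1 and -0.07 without WT 3 (range -0.10 to 0.26 without a library), and Otx1 to -0.11 with every class code. Among other genes, Elavl4 reversed to 0.11 with the highest isoform, Irx2 to 0.52 with reference transcripts, Lmx1b to -0.18 with every class code, and Emx2os to -0.20, -0.06 and -0.01 without KO 3, WT 1 and WT 3 (range -0.20 to 0.29). The cause was not tested.

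Over all genes, 833 were called, against 542 with every class code, 235 with reference transcripts, 128 with the highest isoform, 219 at a threshold of 0.01, 1600 at 0.1, and 281 to 768 without a library (281, 283 and 301 without KO 1, 2 and 3). Listed genes had 14 calls, against 7 with reference transcripts, 5 with the highest isoform and 9 to 14 without a library (9 without KO 1 or KO 3). A replicate block left 15 calls over all genes and 2 among listed genes. Deviations of same-numbered libraries correlated at 0.0119, -0.00306 and 0.065. This shows no sign of pairing by number but cannot exclude it, since other pairings were not compared. A filter at a mean of 5 FPKM kept only Pax6 and Nr2e1 of the 9. Depth limits Emx1 and Otx2, which had at most 21.1 and 8.05 estimated reads in a library.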
